A study of Mus musculus with 7 samples.

Results

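The core circadian clock of mouse cells was examined through 10 genes in RNA of the endothelium that lines lymphatic vessels. These were the activator genes Arntl (which encodes BMAL1) and Clock, the repressor genes Per1, Per2, Per3, Cry1 and Cry2, the nuclear receptor genes Nr1d1 and Nr1d2, and the output gene Dbp. The genes were taken by symbol from a table of raw counts per gene, where all 10 were present among 26583 entries, and all 10 passed the filter on low counts that left 13453 genes for testing. The cells came from the ear pinna, 3 libraries being of naive skin and 4 of BPC melanomas. Naive libraries 1 and 3 were from BrafCA/+; pten l/l mice without Cre, naive library 2 combined such mice with Braf+/+; pten l/l mice that carried Cre, and the tumour libraries were from BrafCA/+; pten l/l mice with Cre, so that the pten l/l allele was common to all. Library 1 of the naive group pooled the sexes, naive library 2 and tumour libraries 3 and 4 were female, and naive library 3 and tumour libraries 1 and 2 were male. The sources used here do not give the promoter that drives Cre, the ages, the number of mice per library or the hour of collection. The p-values therefore measure the spread between these libraries, which may be technical.

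In mammalian cells BMAL1 and CLOCK bind E-boxes as a dimer and switch on the Per and Cry genes, whose proteins then block that dimer, and the cycle of activation and block takes about a day. The same dimer switches on Nr1d1 and Nr1d2, which encode REV-ERB repressors of Arntl, and Dbp, which encodes a transcription factor that acts on D-boxes. In most tissues transcripts of Arntl peak at another time of day than those of Per, Nr1d1 and Dbp, so the relative level of the arms is known to depend on the hour. Per1 is also known as an early response gene that glucocorticoids and cAMP signalling induce.

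Per1 was the one clock gene that passed the test. Its level in CPM (counts scaled to library size) fell 2.61-fold, from a naive mean of 45.6 ± 9.99 (SD, n = 3) to a tumour mean of 17.5 ± 3.01 (SD, n = 4). On the log2 scale the change was -1.38 ± 0.25 (SE), with an adjusted p of 0.0354 in edgeR's quasi-likelihood test after Benjamini-Hochberg adjustment over all tested genes. Across those genes 0.803% were called lower in tumour and 0.899% higher, against 1 of the 10 clock genes lower and 0 higher. The fitted change was below 0 for 8 of the 10 clock genes, including all 5 repressors, and for 47.5% of all tested genes. The median log2 fold change was -0.63 over the 10 genes and 0.04 over all tested genes. The difference between the activator and repressor arms overlapped between the groups. It was described per library without a test, so a separation of the arms was not shown.

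The loop is known to act through E-boxes, the weaker E'-boxes and D-boxes, and promoter sequences are printed for Per1, Per3, Cry1 and Cry2 of the repressor arm and for Nr1d1, where at least one of these motifs was matched before the start of the transcript. RefSeq windows of 300 bases (250 before and 50 after the start, GRCm38.p6) were found for 9 of the 10 genes, in 13 windows. Per2 was the gene without an entry. Searched on both strands were the E-box CACGTG, the E'-box CACGTT, the D-boxes TTATGTAA, TTATGCAA and TTACGTAA, the element TAGGTCA to which ROR and REV-ERB proteins bind with its variant TGGGTCA, and the cAMP response element TGACGTCA. The E'-box reads AACGTG on the opposite strand. An E-box stood in windows of Per1 and Cry1, and in 7.15% of the 32817 windows of all genes. An E'-box stood in those of Cry1, Cry2 and Nr1d1 (4.69% of all windows), and a D-box in those of Per1 and Per3 (1.78%). Arntl had TAGGTCA from base 31 of one of its transcripts (this element or its variant was in 6.46% of all windows), and the cAMP response element was in none of the 13 windows (1.79% of all windows). Clock, Nr1d2 and Dbp had no match in these windows. A match is a description of letters, not a bound site.

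Per1, the gene that passed the test, had 2 RefSeq windows. The window with matches is shown with all 250 bases before the start of its transcript (chr11:69098699-69098948, plus strand). The second window (chr11:69099902-69100201) had 0 matches. In GENCODE the gene begins at 69095217, upstream of both windows. The other genes are shown around their matches and lie on the minus strand: Per3 at chr4:151044791-151044895, Cry1 at chr10:85185084-85185158, Cry2 at chr2:92434205-92434260 and Nr1d1 at chr11:98775378-98775430. Capitals mark the matches, and each sequence runs 5′ to 3′ along its gene.
Per1: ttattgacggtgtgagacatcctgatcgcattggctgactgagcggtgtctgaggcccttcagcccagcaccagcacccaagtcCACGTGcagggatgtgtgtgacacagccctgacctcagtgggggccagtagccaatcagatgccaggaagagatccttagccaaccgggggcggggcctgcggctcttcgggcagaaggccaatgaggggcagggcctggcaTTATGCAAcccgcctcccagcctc
Per3: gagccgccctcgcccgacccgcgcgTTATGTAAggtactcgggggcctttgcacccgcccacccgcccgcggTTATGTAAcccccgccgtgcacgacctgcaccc
Cry1: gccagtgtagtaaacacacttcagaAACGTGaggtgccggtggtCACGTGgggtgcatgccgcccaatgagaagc
Cry2: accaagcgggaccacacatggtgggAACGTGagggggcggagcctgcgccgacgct
Nr1d1: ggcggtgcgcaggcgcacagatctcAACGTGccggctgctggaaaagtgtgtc
Per1 therefore carried an E-box and a D-box in this window, while Per3 carried the D-box on its own, in 2 copies, and Cry1 an E-box beside an E'-box.

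Total counts were 52940832 to 63032175 per library, and a clock gene had 46 to 11198 counts in a library. All 11 markers of lymphatic endothelium, among them Prox1, Flt4, Lyve1 and Pdpn, were present in every library, with summed levels of 12328 to 15098 CPM in naive skin and 10743 to 14278 CPM in tumour. Of these 11, 1 passed the test (Sox18, higher in tumour). The summed level of 9 fibroblast markers was 605 to 1192 CPM in naive skin and 1734 to 18271 CPM in tumour, and 2 of the 9 (Pdgfra and Mfap5) were called higher. For 9 myeloid markers it was 37.3 to 48.4 CPM against 117 to 406 CPM, with Ptprc, Emr1 and Itgam at 0 in all naive libraries and 3 called higher (Emr1, Lyz2 and C1qc), and for 7 melanocyte markers 1.19 to 4.29 CPM against 10.7 to 119 CPM, with Mlana at 0 in naive skin and 2 called higher (Dct and Sox10). In tumour libraries 1 to 4 Emr1 had 76, 312, 631 and 1214 counts. Ptprc had 0, 3, 0 and 378 counts there and Itgam 12, 0, 0 and 501. For Mlana these were 0, 89, 29 and 96 counts and for Tyr 0, 494, 2 and 1267. Pmel had 0, 1, 0 and 573 counts in tumour and 209 in naive library 3. The share called higher over all tested genes was 0.899%. At an unadjusted p under 0.05 higher levels were found for 9 fibroblast, 7 myeloid and 4 melanocyte markers (9.1% of all tested genes), DESeq2 called 8, 6 and 4 of them higher (6.74% of its genes), and limma-voom called 0 in each of these lists (0.736%). The 5 markers of blood endothelium summed to 547 to 665 CPM against 757 to 942 CPM, and the 4 keratinocyte markers to 2.36 to 40.3 CPM against 24.7 to 102 CPM, with 0 called in either list by edgeR. At an unadjusted p under 0.05 the blood endothelial list had 2 genes higher and 1 lower (9.1% and 7.83% of all tested genes). DESeq2 called 3 of its markers higher (Flt1, Plvap and Cd34) and 1 lower (Emcn), against 6.74% and 4.03% of its genes. Limma-voom called Plvap higher and Emcn lower (0.736% and 1.26% of all tested genes). The keratinocyte list had 0 genes by each of these measures. Tumour library 4 had the highest sum of the fibroblast, myeloid, melanocyte and blood endothelial lists. The part of these cells in the results on clock genes was not tested, and fewer cells of a type cannot be told apart from less RNA per cell.

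**Figure D1:**
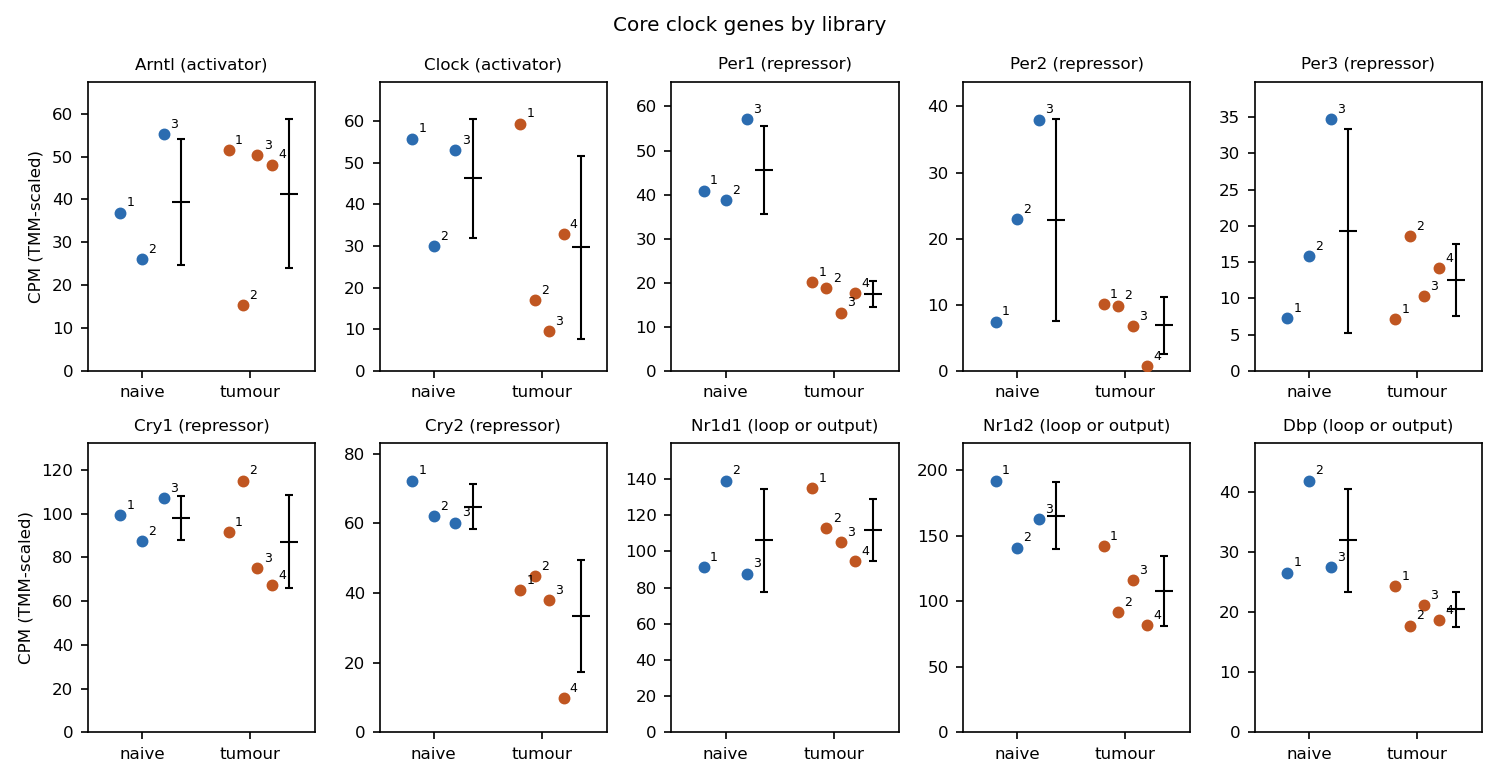
Each panel plots CPM on a linear axis from 0 for 1 clock gene, with naive libraries in blue and tumour libraries in orange, the replicate number beside each point, and the mean with SD as a black bar. For Per1 every tumour library lies at or below 20.2 CPM and every naive library at or above 38.8 CPM.

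Set against gene length, the nuclear receptor genes and Cry1 stood highest among the clock genes of naive skin. As levels in CPM per kilobase of exon, Nr1d1 was at 34.5 ± 9.34, Nr1d2 at 30.6 ± 4.77 and Cry1 at 29.3 ± 2.96 (SD, n = 3), and these neighbours did not differ beyond their spread. Dbp (10.7 ± 2.87), Cry2 (10.3 ± 1.02) and Per1 (8.10 ± 1.77) followed, again within their spread of each other. Arntl (5.23 ± 1.95), Per2 (3.89 ± 2.61), Clock (3.37 ± 1.03) and Per3 (2.01 ± 1.46) were lowest and overlapped. In tumour the order on this scale was Nr1d1 (36.5 ± 5.57, SD, n = 4), Cry1 (26.1 ± 6.32), Nr1d2 (20.0 ± 5.02), Dbp (6.85 ± 0.975), Arntl (5.49 ± 2.31), Cry2 (5.28 ± 2.53), Per1 (3.10 ± 0.534), Clock (2.16 ± 1.6), Per3 (1.31 ± 0.517) and Per2 (1.17 ± 0.742). By these means Per1 stood above Arntl in the naive order and below it in the tumour order, although the libraries of both genes overlapped in either group.

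Among the activators, Arntl, on chromosome 7 (113207465 to 113314126 in GRCm38), did not pass the test, with group means of 39.4 ± 14.7 CPM (SD, n = 3) for naive skin and 41.3 ± 17.4 CPM (SD, n = 4) for tumour. Its values were 36.9, 26.1 and 55.2 CPM in naive libraries 1, 2 and 3, and 51.5, 15.3, 50.3 and 48.1 CPM in tumour libraries 1, 2, 3 and 4. Tumour library 2 was the lowest of all 7 and the other tumour libraries lay inside the naive range. The log2 fold change was 0.07 (SE 0.43, adjusted p = 0.963), and it was 0.34 without tumour library 2 and -0.16 without naive library 2. Clock, on chromosome 5 (76209868 to 76304792), had 55.8, 29.9 and 53 CPM in naive skin and 59.4, 17.0, 9.64 and 32.8 CPM in tumour. Tumour library 1 was the highest and tumour library 3 the lowest of all, a 6.16-fold range within the tumour group. The log2 fold change of Clock was -0.64 (SE 0.55, adjusted p = 0.651). It was -1.22 without tumour library 1 (adjusted p = 0.241) and -0.34 without tumour library 3 (adjusted p = 0.82). With the sequencing lane as a term it was -2.46, a value set only by naive library 3 and tumour library 3, the 1 library of each group on lane 8. The lane was read from a tag in the sample description, which the labels do not call a lane. Both activators were low in tumour library 2, whereas tumour library 3 combined a high Arntl with the lowest Clock.

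The Per genes differed in how evenly they behaved. Per1, on chromosome 11 (69095217 to 69109960), had 40.9, 38.8 and 57.1 CPM in the naive libraries and 20.2, 18.8, 13.2 and 17.7 CPM in the tumour libraries. The groups did not overlap, and within either group the highest library was at most 1.53 times the lowest. Groups also did not overlap for Cry2 and Dbp, which makes 3 of 10 clock genes, and the tumour level was the lower one in each of them, as it was for 8.46% of all tested genes. The call of Per1 rested on all 7 libraries: the adjusted p was 0.107, 0.0855 and 0.142 without naive library 1, 2 or 3, and 0.0551, 0.0634, 0.0684 and 0.0821 without tumour library 1, 2, 3 or 4, with log2 fold changes of -1.49 to -1.18. Within lane 8, which held 1 library of each group, the log2 difference of Per1 was -2.10 (no test), and a fit that included the lane gave an adjusted p of 0.388. A fit that included sex gave 0.0966. In that fit naive library 1, the only pooled one, was a level of its own and added nothing to the contrast. DESeq2, which called 4.03% of its genes lower, gave 3.17e-05.

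Per2, on chromosome 1 (91415982 to 91459324), had 7.47, 22.9 and 38.0 CPM in naive skin and 10.1, 9.87, 6.75 and 0.769 CPM in tumour. Naive library 1 lay among the tumour libraries, and tumour library 4, with 46 counts, lay far below all others. The log2 fold change of -1.73 was larger than that of Per1, but with an SE of 0.80 it did not pass (adjusted p = 0.322), and it was -1.35 without tumour library 4 and -1.14 without naive library 3. Per3, on chromosome 4 (151003652 to 151044665), had 7.28, 15.8 and 34.7 CPM in naive skin and 7.17, 18.6, 10.3 and 14.2 CPM in tumour. Apart from naive library 3 its groups covered the same range. Its log2 fold change was -0.62 (SE 0.54, adjusted p = 0.658) and turned to 0.12 without naive library 3. For Per2 and Per3 the naive libraries alone spanned 5.09-fold and 4.77-fold, with library 1 lowest and library 3 highest for both genes.

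The cryptochrome genes encode the partners of the PER proteins in the repressor complex. Cry2, on chromosome 2 (92403646 to 92434043), had 72.2, 62.0 and 60.2 CPM in naive skin and 40.8, 44.9, 37.9 and 9.74 CPM in tumour. Every tumour library was below every naive library, and tumour library 4 stood far below the other tumour libraries. The log2 fold change was -0.96 (SE 0.44, adjusted p = 0.317). An opposite-strand transcript, D930015M05Rik, shares 4.67% of the exon bases of Cry2 and had at most 18 counts in a library. Without tumour library 4 it was -0.65 with a smaller error, and an adjusted p of 0.184. Cry1, on chromosome 10 (85131700 to 85185064), varied least of the repressors across all 7 libraries, though not within either group, with 99.4, 87.3 and 107 CPM in naive skin and 91.5, 115, 75.0 and 67.3 CPM in tumour. Tumour library 2 was above and tumour libraries 3 and 4 below the naive range, and the log2 fold change was -0.17 (SE 0.21, adjusted p = 0.776). Without 1 library it lay between -0.33 (tumour library 2) and -0.05 (tumour library 4).

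**Figure D2:**
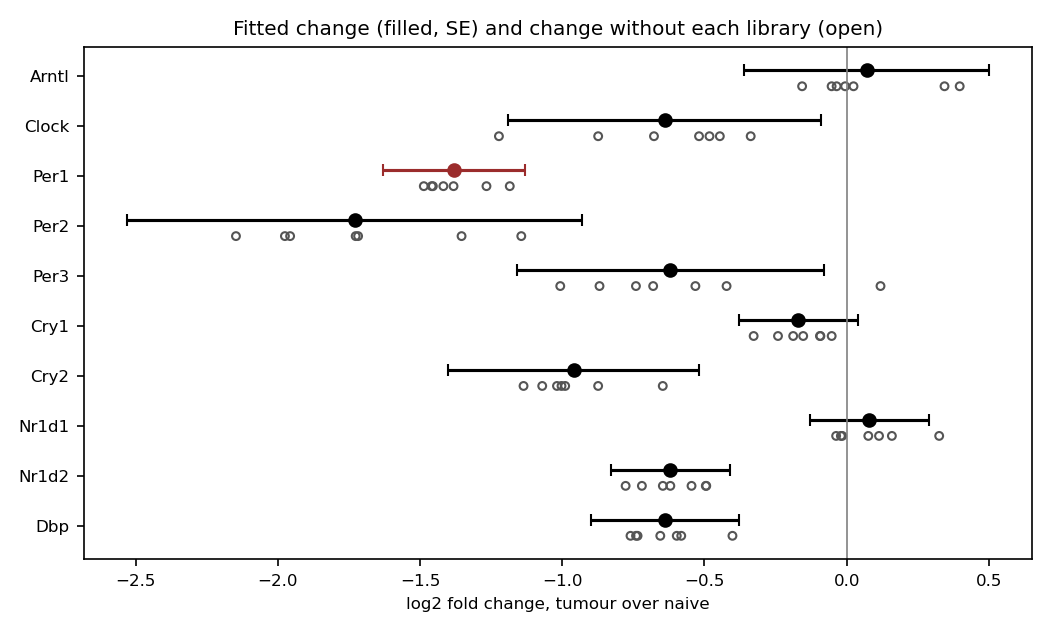
The horizontal axis gives the log2 fold change of tumour over naive for each clock gene, with the fitted value and its SE as a filled point (red for Per1, the one that passed) and the value without each of the 7 libraries as open points. Per1 stays between -1.49 and -1.18, while Arntl, Nr1d1 and Per3 fall on both sides of 0.

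The REV-ERB genes had unlike fitted changes, whose difference was not tested. Nr1d1, on chromosome 11 (98767932 to 98775333), had 91.3, 139 and 87.7 CPM in naive skin and 135, 113, 105 and 94.8 CPM in tumour. All tumour libraries lay within the naive range, and the log2 fold change was 0.08 (SE 0.21, adjusted p = 0.903). Its exons share 263 bases, 8.55% of their length, with Thra on the opposite strand, and the kit does not mark the strand. Thra averaged 46.3 ± 7.0 CPM (SD, n = 3) in the naive group and 39.2 ± 7.95 CPM (SD, n = 4) in the tumour group (adjusted p = 0.677). Nr1d2, on chromosome 14 (18204054 to 18239127), had 192, 141 and 163 CPM in naive skin and 142, 91.7, 116 and 81.6 CPM in tumour. Tumour library 1 overlapped naive library 2 by a narrow margin, and the other tumour libraries were below every naive one. Its log2 fold change was -0.62 (SE 0.21) with an unadjusted p of 0.0183, and it did not pass after adjustment (adjusted p = 0.184). The log2 difference of Nr1d1 minus Nr1d2 within a library was -1.07, -0.02 and -0.89 in naive skin and -0.07, 0.31, -0.14 and 0.22 in tumour, so naive library 2 stood with the tumour libraries.

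Dbp, on chromosome 7 (45705088 to 45710203), is a direct output of the dimer and usually one of the most strongly cycling transcripts of a tissue. It had 26.6, 41.9 and 27.5 CPM in naive skin and 24.3, 17.8, 21.2 and 18.7 CPM in tumour. The groups did not overlap, though naive libraries 1 and 3 lay close above the tumour libraries. The log2 fold change was -0.64 (SE 0.26), with an unadjusted p of 0.0355 and an adjusted p of 0.253, and it was -0.40 without naive library 2. Dbp shares 539 exon bases, 18.0% of its length, with Sphk2 on the opposite strand, which was at 13.5 ± 7.19 CPM (SD, n = 3) and 7.96 ± 4.13 CPM (SD, n = 4; adjusted p = 0.591). With Per1 and Nr1d2, Dbp made 3 of 10 clock genes with a lower tumour level at an unadjusted p under 0.05, against 7.83% of all tested genes.

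The question of whether the arms moved apart was put to each library. The mean log2 CPM of Arntl and Clock was 5.36 ± 0.49 (SD, n = 3) in naive skin and 4.89 ± 0.80 (SD, n = 4) in tumour. The mean of the 5 repressors was 5.27 ± 0.49 (SD, n = 3) and 4.24 ± 0.60 (SD, n = 4), and the groups overlapped at tumour library 2 (4.82) and naive library 1 (4.79). The tumour mean minus the naive mean was -0.46 for the activators and -1.02 for the repressors. The difference of activators minus repressors was 0.71, -0.43 and -0.01 in the naive libraries and 1.31, -0.81, 0.20 and 1.91 in the tumour libraries. Tumour libraries 1 and 4 exceeded every naive library, tumour library 3 lay inside the naive range and tumour library 2 lay below it. The group means were 0.09 ± 0.58 (SD, n = 3) and 0.65 ± 1.20 (SD, n = 4), a shift of 0.56 that is smaller than the SD of the tumour group. It was 0.14 without tumour library 4, 0.30 without naive library 2, 0.34 without tumour library 1, 0.87 without naive library 1 and 1.05 without tumour library 2. With the median in place of the mean over the genes of an arm it was 0.99, and with Npas2, a paralogue of Clock, among the activators it was 1.92. Npas2 did not pass the filter on low counts. It had 0, 1 and 0 counts in naive skin and 2, 333, 173 and 1 in tumour, so the value of 1.92 rests on tumour libraries 2 and 3. No test was made of the arm difference, since its genes were chosen with results of these data known.

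**Figure D3:**
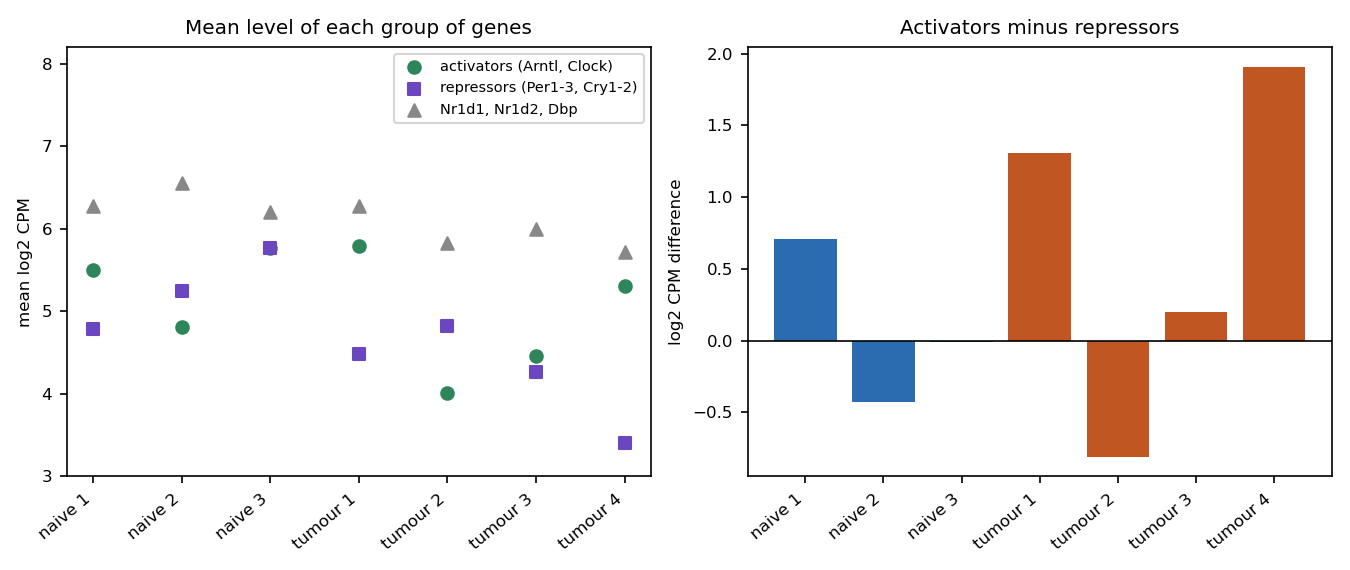
The left panel gives the mean log2 CPM of the activators (circles), the repressors (squares) and Nr1d1, Nr1d2 and Dbp (triangles) in each library, and the right panel the activator mean minus the repressor mean, from -0.81 in tumour library 2 to 1.91 in tumour library 4. Bars of the tumour libraries (orange) lie above, within and below the range of the naive libraries (blue).

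Differences between single genes were also taken in each library. The log2 difference of Arntl minus Per1 was -0.15, -0.57 and -0.05 in naive skin and 1.35, -0.29, 1.92 and 1.44 in tumour, so 3 of the 4 tumour libraries exceeded all naive libraries and tumour library 2 did not. For Arntl minus Dbp the values were 0.47, -0.69 and 1.0 against 1.08, -0.22, 1.25 and 1.36, with the same tumour library inside the naive range. Clock minus Per1 was 0.45, -0.37 and -0.11 against 1.55, -0.14, -0.46 and 0.89, which overlapped more widely. Arntl minus Per2 was 2.3, 0.19 and 0.54 in naive skin and 2.35, 0.63, 2.89 and 5.91 in tumour. Arntl minus Clock was -0.6, -0.2 and 0.06 against -0.21, -0.15, 2.38 and 0.55. For Arntl minus Nr1d1 the naive libraries ranged from -2.42 to -0.67 and the tumour libraries from -2.89 to -0.98. All of these differences overlapped between the groups.

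Beyond the core loop, 28 further clock genes were listed, covering paralogues, ROR receptors, D-box factors, kinases, ubiquitin ligases and their partners. All 28 were in the table (Ciart and Cipc under older symbols), 26 were tested, and 0 passed in either direction with edgeR. At an unadjusted p under 0.05 there were 9, all lower in tumour, against 7.83% of all tested genes. DESeq2, which called 4.03% of its genes lower, called 5 of the 26 lower (Ciart, Csnk1d, Fbxl21, Usp2 and Sirt1), and limma-voom, which called 1.26% of all tested genes lower, called 2 (Ciart and Csnk1d). The fitted change was below 0 for 20 of the 26, against 47.5% of all tested genes, with a median log2 fold change of -0.36, against 0.04. The smallest p belonged to Usp2, Csnk1d, Ciart and Sirt1. Usp2, a deubiquitinase gene under clock control, had 92.6, 60.7 and 91.3 CPM in naive skin and 32.6, 28.3, 48.9 and 21.9 CPM in tumour (log2 fold change -1.31, SE 0.29, adjusted p = 0.0685). Ciart, which encodes a repressor of the BMAL1 and CLOCK dimer, had 42.2, 45.2 and 46 CPM in naive skin and 10, 24.2, 23.5 and 13.8 CPM in tumour (log2 fold change -1.31, SE 0.33, adjusted p = 0.092). Neither gene overlapped between the groups, yet neither passed the adjusted threshold.

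Csnk1d, which encodes a kinase that marks PER proteins for breakdown, averaged 385 ± 16 CPM (SD, n = 3) in naive skin against 248 ± 47.3 CPM (SD, n = 4) in tumour (adjusted p = 0.088). Sirt1, a deacetylase gene, averaged 75.3 ± 5.97 CPM (SD, n = 3) against 44.8 ± 9.86 CPM (SD, n = 4; adjusted p = 0.118). The D-box factor genes Tef and Hlf, relatives of Dbp that were picked out here after their values were seen, had log2 fold changes of -0.72 and -1.40 (adjusted p = 0.211 and 0.312). Npas2, which encodes a stand-in for CLOCK and was likewise picked out after its values were seen, did not pass the filter. It had 0, 1 and 0 counts in naive skin and 2, 333, 173 and 1 counts in tumour libraries 1 to 4, so tumour libraries 2 and 3, those with the lowest Clock, had nearly all of its counts.

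**Figure D4:**
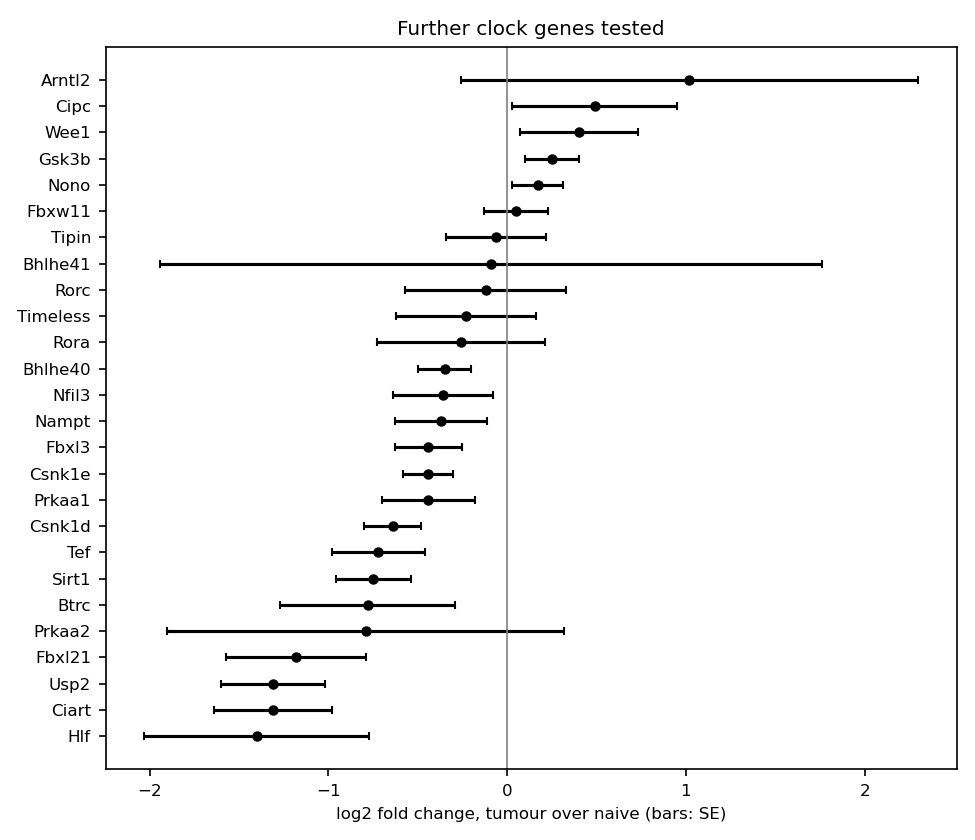
The horizontal axis gives the log2 fold change of tumour over naive, with its SE, for the 26 further clock genes that were tested, in order of size. Of these, 20 lie below 0 and none passed the adjusted threshold, with Hlf, Ciart, Usp2 and Fbxl21 the lowest.

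Lists of genes tied to the known inducers of Per1 were set beside it. Of 10 glucocorticoid response genes 2 fell, 0 rose and 8 did not pass, against 0.803% of all tested genes called lower. Their median log2 fold change was -0.98, against 0.04 over all tested genes. DESeq2 called 7 of the 10 lower (4.03% of its genes) and limma-voom 4 (1.26%). The phosphatase gene Dusp1 fell from 5327, 5590 and 4457 CPM to 2371, 2293, 3364 and 2055 CPM (adjusted p = 0.0354). The cell cycle inhibitor gene Cdkn1a fell by 1.29 on the log2 scale (SE 0.22, adjusted p = 0.0289). Nr3c1, which encodes the glucocorticoid receptor itself, is counted in that list of 10 and among its DESeq2 and limma-voom calls. It is named in addition although it did not pass in edgeR (adjusted p = 0.0626). It was at 748 ± 95.6 CPM (SD, n = 3) and 372 ± 107 CPM (SD, n = 4). Of 11 cAMP and CREB response genes 4 fell, 0 rose and 7 did not pass, against the same 0.803%, with a median log2 fold change of -1.6, against 0.04. DESeq2 called 6 and limma-voom 5 of them lower (4.03% and 1.26%). The 4 that passed in edgeR were Sik1, Junb, Nr4a2 and Nr4a1. Sik1, a kinase gene, had 103, 134 and 97.4 CPM in naive skin and 29.6, 17.9, 31.1 and 24.2 CPM in tumour. The summed level of that list was 20465 to 23819 CPM in naive skin and 5059 to 10821 CPM in tumour. Junb made up the largest part of the sum, with 14244, 13186 and 12035 CPM in naive skin and 3667, 3460, 5611 and 4182 CPM in tumour. All 11 genes had a fitted change below 0, against 47.5% of all tested genes. Fos did not pass in edgeR (adjusted p = 0.622), with 1230, 1067 and 823 CPM in naive skin. In tumour Fos had 214, 235, 1208 and 890 CPM, so tumour libraries 3 and 4 lay inside the naive range. The part of either response in the level of Per1 was not tested.

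The genes whose profile over the 7 libraries was nearest to that of Per1 were Notch1, Sncaip and Anxa11, out of 6950 compared. Their root mean square distances from Per1 were 0.176, 0.186 and 0.194 on the log2 CPM scale after each profile was centred on its own mean. Notch1 had 239, 192 and 304 CPM in naive skin and 138, 105, 87.6 and 123 CPM in tumour. Like Per1 it was highest in naive library 3 and lowest in tumour library 3, a likeness that its choice by nearness to Per1 favours.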

How the data were processed

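RNA was sequenced in 3 naive and 4 tumour libraries made, per the labels' protocols, with the Takara SMART-Seq v4 kit, an unstranded protocol. The authors deposited raw counts per gene symbol and normalized log2 values. Per the submitters' processing notes Trimmomatic 0.38 and mm10 were used; the sources used here do not give the aligner, counter, annotation or normalization. Of 26608 entries, 25 symbols turned into dates (0.174% to 0.236% of counts) were left out. R 4.3.3, edgeR 4.0.16 (filterByExpr, TMM factors of 0.924 to 1.13, robust quasi-likelihood fits, threshold 0.05), limma 3.58.1 and DESeq2 1.42.0 were used, and the edgeR fit was tested on simulated data. Log2 CPM of single libraries used a prior count of 2. Positions and exon lengths are from GENCODE M21 (GRCm38, the assembly of mm10), and promoters from RefSeq (GRCm38.p6).

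All 10 clock genes are given. From the lists of further clock genes and of glucocorticoid and cAMP response genes those past the test are named, or else the 4 with the smallest p, and for Per1 the 3 nearest profiles among genes with a mean log2 CPM of at least 4. Nr3c1, Fos, Tef, Hlf, Npas2 and Fbxl21 are named in addition, outside that rule. Members and lists were chosen with earlier results of these data known. Sequencing lanes were read from tags in the sample descriptions, which the labels do not call lanes. By these tags naive libraries 1 and 2 were on lane 7, naive library 3 and tumour library 3 on lane 8, and the others on lane 6. Alternatives were other scalings, filters and tests, the deposited log2 values, terms for replicate number, lane or sex, a fit without Ccdc115 (6.68% to 16.5% of counts, all multiples of 1024) and leaving out each library.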

Additional observations from a re-analysis of the deposited data

Results flagged for a closer look

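In 3 of 14 sets of values checked over the 4 tumour libraries, 1 library stood apart from the others. Chance sets 1 library apart in about 1 in 20 such sets. Arntl was lowest in tumour library 2, at 3.94 log2 CPM. Per2 was lowest in tumour library 4, at -0.32 log2 CPM. Cry2 was lowest in the same library, at 3.29 log2 CPM. Tumour library 4 also had the highest fibroblast, myeloid and melanocyte marker sums, whose part in these values was not tested.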

How the results depend on the processing

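Per1 was lower under all 18 alternatives, with log2 fold changes of -2.11 to -0.94, and it passed in 8 of them. The count of clock genes called stayed at 1 with DESeq2, RLE or upper-quartile factors, either filter, limma-voom, the deposited values and without Ccdc115. It was 0 with lane, with sex or with the replicate number as a term, and 0 without any 1 library (edgeR; 2 to 4 clock genes at an unadjusted p under 0.05 in these fits). The replicate block left out tumour library 4, which has no naive library of its number. It gave Per1 an adjusted p of 0.27 and 3 calls over all genes (1495 at an unadjusted p under 0.05). Leaving out tumour library 4 without the block gave Per1 0.0821 and 102 calls. Same-numbered libraries did not deviate together (correlations across genes of -0.122, -0.017 and -0.0652). With only 3 libraries per group in this check, it cannot show whether the numbers pair them. Over all genes the 229 calls (121 higher and 108 lower) became 1513 with DESeq2, 359 with a filter of 5 CPM in 3 libraries, 356 on the deposited values, 12 with sex and 0 with lane as a term (1169 at an unadjusted p under 0.05), and 7 to 171 without 1 library (7, 33 and 25 without naive library 1, 2 or 3, and 127 and 102 without tumour library 3 or 4). The split was 156 higher and 92 lower with upper-quartile factors, 99 and 170 with limma-voom and 947 and 566 with DESeq2. Upper-quartile factors put the median log2 fold change of all genes at 0.107, against 0.037. With lane as a term only lane 8 sets the contrast, by construction. With sex as a term naive library 1, the only pooled one, does not add to the contrast. The arm difference was 1.92 with Npas2 among the activators, although Npas2 did not pass the filter and had nearly all its counts in tumour libraries 2 and 3. The arm difference was 0.99 with medians over the genes of an arm, 0.31 on the deposited values, 0.35 with Nr1d1 and Nr1d2 among the repressors, 0.14 to 1.05 without 1 library, and 0.21 within lane 8. Near 0, direction turned for Arntl (-0.13 with lane, -0.13 with the replicate block, -0.004 on the deposited values, -0.16 without naive library 2, and -0.05, -0.04 and -0.01 without tumour library 1, 3 or 4; range without 1 library -0.16 to 0.40), for Nr1d1 (-0.015 with sex, -0.02 without naive library 1, -0.037 without naive library 3, -0.02 without tumour library 1; range without 1 library -0.037 to 0.33) and for Per3 (0.12 without naive library 3; range -1.01 to 0.12). The cause was not tested. Intervals at these depths are set by the spread between libraries, not by counting.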
